A study of Mus musculus with 8 samples.

Results

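The stage change described here is that of single mouse follicles which, per the labels, came from transplanted female germline stem cells (FGSCs). Small antral follicles (SAF-TF replicates 1 and 2) were set against preantral follicles (PF-TF replicates 1 and 2). These are 4 of the 8 libraries of the series, chosen by their labelled stage and follicle source. The other 4, SAF-WT and PF-WT with 2 libraries each, were labelled as follicles of WT mice. They served for the common estimate of spread and for a direct test of where the stage effect differed with source. All 4 groups were labelled ovary of strain C57BL/6. Each follicle was freed with a hypodermic needle, and its polyadenylated RNA was copied with a low-input SMARTer kit and sequenced as 1 library. The age of the mice, the transplant hosts, the number of animals and the cells of a TF follicle that derived from the transplant are nowhere stated in the labels. Nothing says if 1 mouse gave both replicates, so p-values measure the spread between these follicles only.

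A preantral follicle holds a growing oocyte inside layers of dividing granulosa cells, with a basement membrane and a theca layer outside. As fluid collects and the antrum forms, granulosa cells take on different roles near the oocyte and near the wall, and theca, vessels and stroma come to surround them. Granulosa and theca cells make steroids from cholesterol, and after the surge of luteinizing hormone they turn into the luteal cells of the corpus luteum, which make progesterone.

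Total counts were 9182465 and 8439542 in SAF-TF, against 8616124 and 9292314 in PF-TF. Values are CPM (read counts per 1000000 after TMM scaling, not per length, so levels are compared within a gene). A gene at 0 counts in a library may have held up to 3 counts, 0.301 to 0.338 CPM in these libraries, for counting error only. The 10 most abundant genes took 10.3% and 9.34% of counts in SAF-TF, against 5.25% and 5.14% in PF-TF. Mitochondrially encoded genes took 3.85% and 2.96% in SAF-TF, against 2.16% and 2.38% in PF-TF. Across genes, which are not independent replicates, log2 CPM correlated at 0.979 between the SAF-TF libraries, 0.963 between the PF-TF libraries and 0.739 to 0.779 across the stages. PF-TF replicate 1 held the fewest genes with a count, 18796, against 20076 to 20313 in the other 3 libraries.

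The stage labels were checked with marker genes, summed per library. Both PF-TF follicles held oocyte and granulosa transcripts. The 5 oocyte markers summed to 159.9 and 74.1 CPM in SAF-TF, against 7503 and 6454 CPM in PF-TF, and the 5 granulosa markers to 1359 and 1909 CPM in SAF-TF, against 3103 and 3014 CPM in PF-TF. The SAF-TF follicles thus kept granulosa transcripts, mostly those of Inha, but held few oocyte transcripts, and the sum of 5 luteal markers was high in them. Those luteal markers summed to 12667 and 12531 CPM in SAF-TF, against 22.04 and 16.7 CPM in PF-TF. Most of the sum in SAF-TF was Akr1c18 alone, so it is not an even rise of all 5. Sfrp4, Lhcgr and Ptgfr, also among them, were far above PF-TF in both SAF-TF libraries too, with levels given below. In the WT follicles of the same labelled stage, SAF-WT, the luteal sum was 95.6 and 81.99 CPM and the oocyte sum 133.8 and 989 CPM. Their granulosa markers summed to 400 and 491 CPM and their theca markers to 457 and 466 CPM. Theca markers summed to 49.2 and 48.3 CPM in SAF-TF, against 16.3 and 37.9 CPM in PF-TF. The low oocyte sums do not by themselves set SAF-TF apart, since SAF-WT replicate 1 held a like sum and SAF-WT replicate 2 a higher one. The luteal levels go against the label of a small antral follicle for both SAF-TF libraries, which leaves their stage in doubt. They are called by their label below, and each stage change is one between libraries so labelled.

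Of 17925 genes tested, 7744 passed an adjusted p of 0.05, or 43.2%. The 3261 genes that rose in SAF-TF made up 18.2% of those tested, and the 4483 that fell made up 25%. Counts of the gene lists below are to be read beside these shares. The median log2 fold change over all genes was -0.08. A change of at least 4-fold was fitted for 1521 of the genes that rose and 2759 of those that fell, and a change of at least 32-fold for 494 and 998. Libraries of the stages did not overlap in 13308 genes, 74.2%. The split between directions moved with the scaling. Genes that rose were 42.1% of those called here, 56.2% with the authors' scale factors (median 0.27), 55.1% with upper-quartile factors (median 0.24), and 47.1% with RLE factors (median 0.03). By the authors' deposited table, with its own adjusted p, 9004 genes passed, 5300 higher and 3704 lower, and 6404 genes were called by both tests, with 0 in opposite directions.

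**Figure D1:**
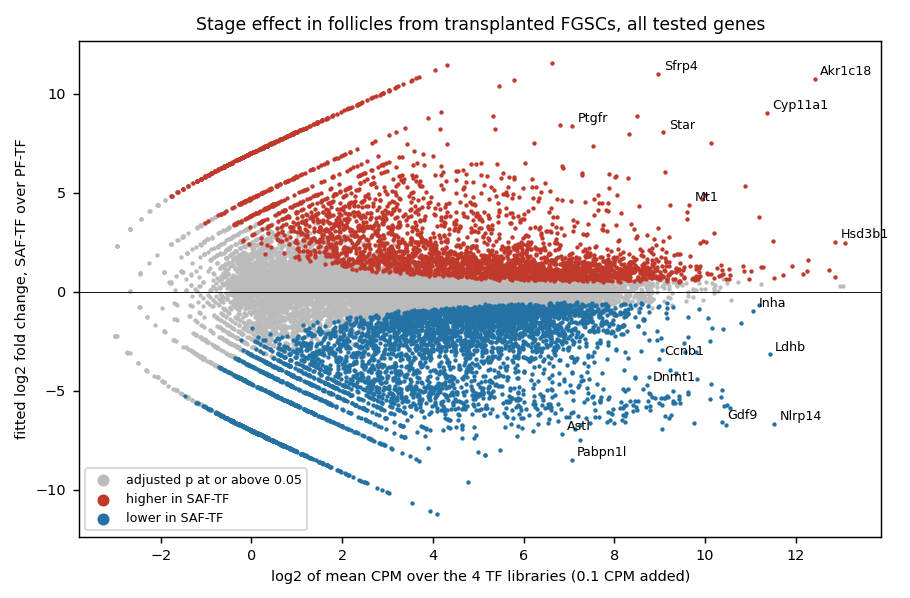
Fitted log2 fold change of SAF-TF over PF-TF (y) against the log2 mean CPM of the 4 TF libraries (x, with 0.1 CPM added), 1 point per tested gene, coloured by an adjusted p under 0.05. Akr1c18 and Cyp11a1 stand at the upper right, and Nlrp14 and Ldhb at the lower right. The slanted lines of points are genes with few or no counts at one stage, whose fitted values depend on the prior count.

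The 12 genes with the largest gain in reads included enzymes of progesterone metabolism, the ferritins and mitochondrially encoded genes. Akr1c18, which inactivates progesterone, had 10527 and 11346 CPM in SAF-TF, against 6.31 and 6.42 CPM in PF-TF (log2 fold change 10.74 ± 0.24, adjusted p = 3.15e-08). Hsd3b1, which makes progesterone from pregnenolone, had 15049 and 10489 CPM in SAF-TF, against 1609 and 2851 CPM in PF-TF (log2 fold change 2.52 ± 0.33, adjusted p = 0.000311). Both SAF-TF libraries lay above both PF-TF libraries for each. The ferritin genes Fth1 and Ftl1, whose products store iron, rose by 1.60 ± 0.18 and 2.56 ± 0.20 on the log2 scale. Ftl1 had 4551 and 5341 CPM in SAF-TF, against 869 and 811 CPM in PF-TF. The nuclear RNA Malat1 rose by 2.44 ± 0.44, the actin-binding thymosin gene Tmsb4x by 3.76 ± 0.42 and the mitochondrial complex I gene ND1 by 1.07 ± 0.22. The largest adjusted p among these 5 genes was that of ND1 (adjusted p = 0.00367). Reads named for ribosomal RNA, Rn18s-rs5, rose by 1.08 ± 0.23 (adjusted p = 0.00463) in a library type that selects for polyadenylated RNA.

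Most of the 12 genes with the largest loss of reads are known from the oocyte, and the granulosa protease inhibitor gene Serpine2 was among the others. Ldhb, a lactate dehydrogenase subunit, had 618 and 487 CPM in SAF-TF, against 5523 and 4349 CPM in PF-TF (log2 fold change -3.16 ± 0.29, adjusted p = 5.84e-05). Nlrp14, of a family of cytoplasmic oocyte proteins, had 84.7 and 29.1 CPM in SAF-TF, against 7128 and 4537 CPM in PF-TF (log2 fold change -6.68 ± 0.78, adjusted p = 0.000172). H1foo, the linker histone of the oocyte, had 55.8 and 42.4 CPM in SAF-TF, against 2685 and 2691 CPM in PF-TF (log2 fold change -5.78 ± 0.51, adjusted p = 4.30e-05). The stages did not overlap for any of the 3. Serpine2 had 511 and 1283 CPM in SAF-TF, against 2657 and 2701 CPM in PF-TF (log2 fold change -1.58 ± 0.47, adjusted p = 0.0216), a call lost without SAF-TF replicate 1, PF-TF replicate 1 or PF-TF replicate 2 and with the authors' factors or upper-quartile factors (adjusted p = 0.0524 to 0.12).

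Genes of the oocyte fell in each of the 7 oocyte lists. In a bulk library, fewer cells of a type (or a smaller share of their RNA) and less of a transcript per cell cannot be told apart, here and for every cell type below. Of 9 secreted factors and signals of the oocyte and its neighbours, 0 rose and 7 fell, with a median log2 fold change of -2.95. Fgf8, a growth factor by which the oocyte acts on cumulus cells, had 4.62 and 0.677 CPM in SAF-TF, against 127 and 126 CPM in PF-TF (log2 fold change -5.56 ± 0.59, adjusted p = 0.000109). Gpr3, the receptor that keeps cAMP high in the arrested oocyte, had 0.43996 and 0.113 CPM in SAF-TF, against 11.4 and 11.7 CPM in PF-TF (log2 fold change -5.31 ± 0.85, adjusted p = 0.00101). The stages did not overlap for either gene. Kit, the receptor by which the oocyte receives growth signals from granulosa cells, had 17.05 and 8.68 CPM in SAF-TF, against 89.6 and 80.2 CPM in PF-TF (log2 fold change -2.72 ± 0.38, adjusted p = 0.000433). Nppc, the granulosa peptide that holds the oocyte in arrest, had 11.99 and 35.5 CPM in SAF-TF, against 29.9 and 48.97 CPM in PF-TF and passed only without SAF-TF replicate 2 (adjusted p = 0.0226).

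All 8 tested genes of the zona pellucida and egg coat fell (median -5.49), against 25% of all genes. The zona genes Zp1, Zp2 and Zp3 stood at -6.21 ± 1.02, -5.70 ± 0.97 and -5.30 ± 0.98. Zp2 had 82.8 and 25.04 CPM in SAF-TF, against 2869 and 2728 CPM in PF-TF. In each of the 3, SAF-TF replicate 1 held more than SAF-TF replicate 2, and both lay far below PF-TF. Astl, the protease that cleaves ZP2 after fertilization, had 2.31 and 0.7895 CPM in SAF-TF, against 282 and 174 CPM in PF-TF (log2 fold change -7.18 ± 0.92, adjusted p = 0.000284). Cd9, the membrane protein by which the egg fuses with sperm and which other cells make too, had 137 and 113 CPM in SAF-TF, against 394 and 455 CPM in PF-TF (log2 fold change -1.76 ± 0.29, adjusted p = 0.00108).

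Of 12 transcription factors of the oocyte, 0 rose and 9 fell (median -4.51). Lhx8, a factor of early oocyte growth, had 3.74 and 1.35 CPM in SAF-TF, against 191 and 119 CPM in PF-TF (log2 fold change -5.92 ± 0.49, adjusted p = 3.10e-05). Nobox, which drives many oocyte genes, had 6.71 and 3.38 CPM in SAF-TF, against 474 and 330.5 CPM in PF-TF (log2 fold change -6.31 ± 0.69, adjusted p = 0.000128). Figla, the basic helix-loop-helix factor that acts through E-boxes on the zona genes, had 4.29 and 2.93 CPM in SAF-TF, against 51.2 and 54.99 CPM in PF-TF (log2 fold change -3.87 ± 0.59, adjusted p = 0.000786). None of these groups of libraries overlapped between stages. Obox1, Obox2 and Obox5 fell by like amounts, with log2 fold changes of -5.33, -5.14 and -5.38, but these paralogues are close copies and how reads were shared among them is not known.

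The promoters of Zp3 and Nobox are shown because Figla binds E-boxes and both genes fell with it. They are RefSeq sequences of GRCm38.p6, from 250 bases before to 50 after the start, 5′ to 3′ on the strand of the gene, with each CANNTG in capitals. Zp3 lies on the plus strand at chr5:135979855-135980154 and Nobox on the minus strand at chr6:43309505-43309804.
Zp3: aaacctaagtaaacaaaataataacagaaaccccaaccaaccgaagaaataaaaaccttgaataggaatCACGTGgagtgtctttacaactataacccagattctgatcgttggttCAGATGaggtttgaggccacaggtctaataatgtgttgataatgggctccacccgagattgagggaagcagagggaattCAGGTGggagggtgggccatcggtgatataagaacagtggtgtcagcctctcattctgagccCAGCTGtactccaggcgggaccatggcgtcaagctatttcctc
Nobox: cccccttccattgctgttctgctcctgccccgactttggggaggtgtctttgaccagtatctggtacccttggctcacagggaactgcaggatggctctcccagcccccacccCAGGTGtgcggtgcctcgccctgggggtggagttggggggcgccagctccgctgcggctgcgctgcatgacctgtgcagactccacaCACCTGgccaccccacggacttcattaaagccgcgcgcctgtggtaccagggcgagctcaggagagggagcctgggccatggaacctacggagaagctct
The Zp3 window holds 4 matches and the Nobox window 2. CANNTG, which reads the same on both strands, was found in 9 of the 10 oocyte transcription factor genes and in 4 of the 5 zona and egg coat genes with a promoter in the table. It was also found in 20265 of all 27025 genes there, 75.0%.

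All 12 tested genes of the subcortical maternal complex and its Nlrp relatives fell (median -6.16, the lowest of the 52 lists). Nlrp5, a core member of that complex, had 24.5 and 9.93 CPM in SAF-TF, against 2232 and 1211 CPM in PF-TF (log2 fold change -6.64 ± 0.90, adjusted p = 0.000387). Ooep, another core member, had 106 and 67.4 CPM in SAF-TF, against 2437 and 1889 CPM in PF-TF (log2 fold change -4.64 ± 0.59, adjusted p = 0.000281), and Padi6, needed for the cytoplasmic lattices of the oocyte, had 43.7 and 9.14 CPM in SAF-TF, against 3529 and 2071 CPM in PF-TF (log2 fold change -6.73 ± 1.24, adjusted p = 0.00209). As with the zona genes, SAF-TF replicate 1 held more of each than SAF-TF replicate 2. Of 13 genes of maternal mRNA storage and decay, 0 rose and 10 fell (median -5.44). Pabpn1l, an oocyte poly(A)-binding protein that acts in maternal mRNA decay, had 1.21 and 0.226 CPM in SAF-TF, against 311 and 222 CPM in PF-TF (log2 fold change -8.50 ± 0.49, adjusted p = 1.78e-05). Btg4, the adaptor for the deadenylase, had 45.9 and 15.8 CPM in SAF-TF, against 1299.7 and 1370.1 CPM in PF-TF (log2 fold change -5.43 ± 0.57, adjusted p = 9.80e-05).

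Of 11 germ granule and piRNA genes, 0 rose and 9 fell (median -4.32). Asz1, a mitochondrial protein of piRNA production, had 2.64 and 1.58 CPM in SAF-TF, against 102 and 94.4 CPM in PF-TF (log2 fold change -5.53 ± 0.36, adjusted p = 1.78e-05). Dazl, an RNA-binding protein of germ cells, had 21.1 and 16.5 CPM in SAF-TF, against 517 and 620.5 CPM in PF-TF (log2 fold change -4.92 ± 0.38, adjusted p = 2.38e-05). Each was at least an order of magnitude lower in both SAF-TF libraries. Ddx4, the RNA helicase of germ cells, had 3.74 and 2.48 CPM in SAF-TF, against 191 and 139 CPM in PF-TF (log2 fold change -5.72 ± 0.60, adjusted p = 0.000103). Tdrd7, which is also made outside the germline, had 9.57 and 7.33 CPM in SAF-TF, against 14.95 and 9.23 CPM in PF-TF and did not pass. All 12 tested genes of meiotic arrest and resumption fell (median -4.00). Mos, the kinase that holds the mature egg in metaphase, had 11.1 and 7.33 CPM in SAF-TF, against 589.5 and 504 CPM in PF-TF (log2 fold change -5.89 ± 0.39, adjusted p = 1.83e-05). Wee2, which keeps the oocyte in prophase, had 4.73 and 2.59 CPM in SAF-TF, against 319.5 and 199.9 CPM in PF-TF (log2 fold change -6.14 ± 0.91, adjusted p = 0.000666), and Ccno, a cyclin of the oocyte, had 1.98 and 1.35 CPM in SAF-TF, against 376 and 227 CPM in PF-TF (log2 fold change -7.48 ± 0.62, adjusted p = 3.25e-05).

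Of the connexins that join oocyte and granulosa cells, the oocyte's fell and that of granulosa cells did not pass. Gja4, which forms the channels between oocyte and cumulus cells, had 4.84 and 0.902 CPM in SAF-TF, against 247 and 161 CPM in PF-TF (log2 fold change -6.14 ± 0.69, adjusted p = 0.000143). Gja1, which joins granulosa cells to each other, had 506 and 837 CPM in SAF-TF, against 273 and 716 CPM in PF-TF (log2 fold change 0.44 ± 0.41, adjusted p = 0.411) and passed only without PF-TF replicate 2 (adjusted p = 0.0208). The Gja1 libraries overlapped between stages, with PF-TF replicate 2 above SAF-TF replicate 1.

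**Figure D2:**
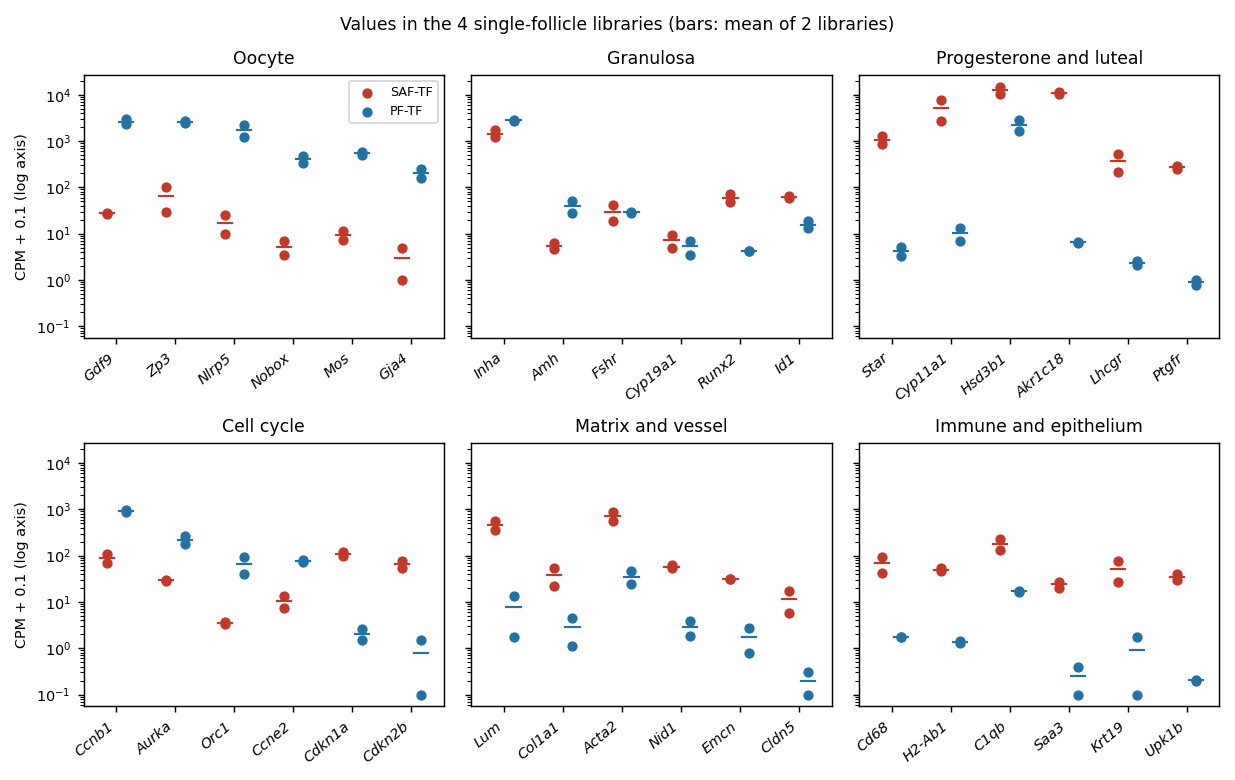
CPM of 36 genes in the 4 TF libraries (y, log axis with 0.1 CPM added), SAF-TF in red and PF-TF in blue, 1 point per library with bars at the mean of 2. Oocyte genes sit lower and luteal, matrix and immune genes higher in SAF-TF, and Fshr and Cyp19a1 overlap between stages.

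Granulosa genes moved less than those of the oocyte. Of 24 tested, 2 rose and 9 fell, against 18.2% and 25% of all genes, with a median of -0.57. Those that fell numbered 2 without SAF-TF replicate 1, 4 without either PF-TF library and 4 with the authors' or upper-quartile factors. Those that rose numbered 5 without PF-TF replicate 2 and 4 with either set of factors. Slc18a2, a vesicular monoamine transporter, kept its call in each of these settings and had 50.8 and 72.4 CPM in SAF-TF, against 197 and 607 CPM in PF-TF (log2 fold change -2.71 ± 0.46, adjusted p = 0.00139). Amh, a hormone of small growing follicles, had 6.05 and 4.62 CPM in SAF-TF, against 49.7 and 27.5 CPM in PF-TF (log2 fold change -2.85 ± 0.80, adjusted p = 0.0174), a call lost without SAF-TF replicate 1, SAF-TF replicate 2 or PF-TF replicate 1 (adjusted p = 0.067 to 0.0999). Its receptor gene Amhr2 had 36.96 and 43.2 CPM in SAF-TF, against 228 and 142 CPM in PF-TF (log2 fold change -2.21 ± 0.54, adjusted p = 0.00929), a call lost without SAF-TF replicate 1 (adjusted p = 0.0625). Inha, the inhibin subunit gene, had 1207 and 1693 CPM in SAF-TF, against 2895 and 2723 CPM in PF-TF (log2 fold change -0.95 ± 0.30, adjusted p = 0.0279), a call lost without SAF-TF replicate 1, PF-TF replicate 1 or PF-TF replicate 2 and with the authors' factors or upper-quartile factors (adjusted p = 0.0857 to 0.167). All libraries of one stage lay on one side of the other for these 4 genes.

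Fshr, the receptor for follicle-stimulating hormone, had 18.3 and 40.7 CPM in SAF-TF, against 27.9 and 29.4 CPM in PF-TF, and the aromatase gene Cyp19a1 had 4.84 and 9.25 CPM in SAF-TF, against 3.43 and 6.92 CPM in PF-TF. Both overlapped between stages and did not pass. The genes of the list that rose were Runx2 and Id1. Runx2, a transcription factor of differentiating granulosa and luteal cells, had 71.9 and 48.05 CPM in SAF-TF, against 4.21 and 4.11 CPM in PF-TF (log2 fold change 3.85 ± 0.43, adjusted p = 0.000151). Id1, an inhibitor of helix-loop-helix factors, had 59.8 and 64.1 CPM in SAF-TF, against 18.4 and 12.8 CPM in PF-TF (log2 fold change 1.99 ± 0.27, adjusted p = 0.000403).

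Of the genes listed for cumulus expansion and ovulation, 16 were in the tables and 13 passed the filter on low counts. Those below it included Ptgs2 and Has2, the enzymes of ovulatory prostaglandin and hyaluronan synthesis. Ptgs2 had 0.21998 and 0.677 CPM in SAF-TF, against 0 and 0 CPM in PF-TF, and Has2 had 0 and 1.24 CPM in SAF-TF, against 0 and 0 CPM in PF-TF. Of the 13 tested, 5 rose and 1 fell, against 18.2% and 25% of all genes. Fewer rose without SAF-TF replicate 1, SAF-TF replicate 2 or PF-TF replicate 1, and 1 rose with a filter at a mean of 10 CPM. Adamts1, a protease that cleaves versican at ovulation, had 75.8 and 16.8 CPM in SAF-TF, against 0.111 and 3.81 CPM in PF-TF, and its call (log2 fold change 4.53 ± 1.05, adjusted p = 0.00706) was lost without SAF-TF replicate 1 (adjusted p = 0.0674). Its highest value was in SAF-TF replicate 1. Rgs2, a regulator of G protein signalling, fell and had 430.4 and 564 CPM in SAF-TF, against 1833 and 1759 CPM in PF-TF (log2 fold change -1.85 ± 0.28, adjusted p = 0.000751).

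Receptors for luteinizing hormone, prolactin and prostaglandin F2 alpha rose. Of 10 tested hormone receptors 6 rose, against 18.2% of all genes, and 1 fell. Lhcgr, the luteinizing hormone receptor, had 514 and 216 CPM in SAF-TF, against 2.44 and 2.01 CPM in PF-TF (log2 fold change 7.35 ± 0.61, adjusted p = 3.34e-05). Prlr, the prolactin receptor that maintains the rodent corpus luteum, had 584 and 291 CPM in SAF-TF, against 19.7 and 31.4 CPM in PF-TF (log2 fold change 4.09 ± 0.41, adjusted p = 7.82e-05). Ptgfr, the receptor through which prostaglandin F2 alpha brings luteal regression, had 291 and 246 CPM in SAF-TF, against 0.665 and 0.903 CPM in PF-TF (log2 fold change 8.39 ± 0.48, adjusted p = 1.78e-05). Each was far above both PF-TF libraries, and SAF-TF replicate 1 held more of each than SAF-TF replicate 2. The oxytocin receptor gene Oxtr had 35.97 and 19.3 CPM in SAF-TF, against 0.111 and 0.502 CPM in PF-TF (log2 fold change 6.40 ± 0.70, adjusted p = 0.000126). The gene that fell, the prostaglandin E receptor gene Ptger4, had 1.43 and 0.902 CPM in SAF-TF, against 15.4 and 7.12 CPM in PF-TF (log2 fold change -3.25 ± 0.86, adjusted p = 0.0131), a call lost without SAF-TF replicate 1, SAF-TF replicate 2 or PF-TF replicate 1 (adjusted p = 0.0561 to 0.0874).

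Genes of the path from cholesterol to progesterone rose, in 8 of 12 tested (median 2.58), with none that fell. Of all genes 18.2% rose and 25% fell. Star, which moves cholesterol into mitochondria, had 1289 and 866 CPM in SAF-TF, against 4.98 and 3.21 CPM in PF-TF (log2 fold change 8.04 ± 0.49, adjusted p = 1.78e-05). Cyp11a1, which cleaves its side chain, had 7838 and 2643 CPM in SAF-TF, against 6.76 and 13.2 CPM in PF-TF (log2 fold change 9.03 ± 0.70, adjusted p = 2.46e-05). Its electron carriers are encoded by Fdx1 and Fdxr. Fdx1 had 4156 and 3194 CPM in SAF-TF, against 67.01 and 112 CPM in PF-TF (log2 fold change 5.36 ± 0.32, adjusted p = 1.78e-05), and Fdxr had 160.4 and 72.5 CPM in SAF-TF, against 20.05 and 20.5 CPM in PF-TF (log2 fold change 2.52 ± 0.38, adjusted p = 0.000736). The outer membrane protein gene Tspo had 238 and 124 CPM in SAF-TF, against 28.2 and 29.6 CPM in PF-TF (log2 fold change 2.64 ± 0.32, adjusted p = 0.000217), and Mgarp, a mitochondrial protein of steroidogenic cells, had 2878 and 1585 CPM in SAF-TF, against 1.99 and 22.2 CPM in PF-TF (log2 fold change 7.52 ± 1.09, adjusted p = 0.000559). SAF-TF replicate 1 was the higher of the pair in all of these. Hsd3b6, the paralogue of Hsd3b1, had 0.9899 and 2.48 CPM in SAF-TF, against 11.2 and 2.11 CPM in PF-TF and did not pass, and how reads were shared between these close copies is not known.

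The promoters of Akr1c18 and Cyp11a1 are shown as those of enzymes that stand at the end and at the start of this path and that rose with it. They are RefSeq windows of the same build and length, with each CANNTG in capitals. Akr1c18 lies on the minus strand at chr13:4150597-4150896 and Cyp11a1 on the plus strand at chr9:57997774-57998073, 1 of 2 windows given for that gene.
Akr1c18: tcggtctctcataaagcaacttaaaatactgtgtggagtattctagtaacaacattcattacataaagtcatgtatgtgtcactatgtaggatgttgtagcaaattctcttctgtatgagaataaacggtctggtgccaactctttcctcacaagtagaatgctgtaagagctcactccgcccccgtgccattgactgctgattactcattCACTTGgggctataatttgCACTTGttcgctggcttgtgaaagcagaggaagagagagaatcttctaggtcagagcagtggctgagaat
Cyp11a1: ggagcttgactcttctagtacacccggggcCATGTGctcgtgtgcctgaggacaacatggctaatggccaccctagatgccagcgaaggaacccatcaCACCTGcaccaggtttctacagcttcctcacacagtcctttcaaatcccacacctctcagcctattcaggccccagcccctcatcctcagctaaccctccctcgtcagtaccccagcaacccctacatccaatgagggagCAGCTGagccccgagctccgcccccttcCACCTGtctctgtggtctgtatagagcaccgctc
Of the 9 genes of this path in the promoter table, 6 held CANNTG, 66.7%. AAGGTCA, which steroidogenic factor 1 can bind, searched on both strands, was in 0 of the 9 and in 5.38% of all genes of the table. TGACG, part of the cAMP response element, was in 1 of the 9 and in 23.05% of all genes. TATAAA was in 0 of the 9 and in 15.7% of all genes. A count of 0 says only that these letters are not in these windows.

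Enzymes past progesterone moved unevenly. Of 17 tested genes of androgen and estrogen synthesis and of the theca, 8 rose and 1 fell (median 2.45). Of all genes 18.2% rose and 25% fell. Of the 4 theca markers summed above, 1 rose and 0 fell. Cyp17a1, which makes androgens, had 4.18 and 2.82 CPM in SAF-TF, against 1.88 and 3.11 CPM in PF-TF, and the theca hormone gene Insl3 had 5.61 and 1.92 CPM in SAF-TF, against 0.222 and 3.01 CPM in PF-TF. Neither passed (adjusted p = 0.463 for Cyp17a1 and adjusted p = 0.347 for Insl3). Insl3 did without PF-TF replicate 2 (adjusted p = 0.0428). Hsd17b7, an enzyme of estradiol and cholesterol synthesis, had 229.9 and 133 CPM in SAF-TF, against 34.6 and 31.9 CPM in PF-TF (log2 fold change 2.45 ± 0.39, adjusted p = 0.000942). Srd5a1, a steroid 5 alpha-reductase, had 68.2 and 34.7 CPM in SAF-TF, against 4.54 and 6.42 CPM in PF-TF (log2 fold change 3.23 ± 0.46, adjusted p = 0.00049), while Srd5a3 fell (log2 fold change -1.21 ± 0.24, adjusted p = 0.00339). Aldh1a1, a retinal dehydrogenase, had 1899.5 and 1009.8 CPM in SAF-TF, against 67.6 and 109.98 CPM in PF-TF (log2 fold change 4.03 ± 0.50, adjusted p = 0.000242).

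Of 19 luteal genes, 16 rose and 1 fell (median 3.87). This list was chosen with the luteal result of these libraries known, so its count is no independent evidence of direction. Sfrp4, a secreted Wnt antagonist, had 1294 and 709.5 CPM in SAF-TF, against 0.222 and 0.702 CPM in PF-TF (log2 fold change 11.01 ± 0.57, adjusted p = 1.50e-05). Timp1, an inhibitor of matrix proteases, had 445 and 253 CPM in SAF-TF, against 25.6 and 22.2 CPM in PF-TF (log2 fold change 3.87 ± 0.30, adjusted p = 2.55e-05). Mgp, an inhibitor of calcification, had 401 and 373 CPM in SAF-TF, against 10.4 and 24.7 CPM in PF-TF (log2 fold change 4.46 ± 0.52, adjusted p = 0.000185), and Sgk1, a kinase under steroid control, had 461 and 164 CPM in SAF-TF, against 8.31 and 19.1 CPM in PF-TF (log2 fold change 4.51 ± 0.59, adjusted p = 0.000324). All were higher in both SAF-TF libraries. Bhmt, a methyltransferase of homocysteine, had 3 counts over both PF-TF libraries and was higher in SAF-TF by a ratio of 509.8 (95% counting interval 174 to 2475). The gene that fell, Lpl, a lipase, had 28.05 and 40.3 CPM in SAF-TF, against 69.6 and 106 CPM in PF-TF (log2 fold change -1.37 ± 0.29, adjusted p = 0.00416), a call lost without PF-TF replicate 2 (adjusted p = 0.0545).

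The supply of cholesterol showed both directions, beside 18.2% of all genes that rose and 25% that fell. Of 29 tested genes 13 rose and 4 fell, with 2 that fell without PF-TF replicate 2 (median 1.10). Fdps, of the mevalonate path, had 576 and 443 CPM in SAF-TF, against 136 and 133 CPM in PF-TF (log2 fold change 1.92 ± 0.43, adjusted p = 0.00604), and Npc2, which carries cholesterol out of lysosomes, had 385 and 297 CPM in SAF-TF, against 135 and 146 CPM in PF-TF (log2 fold change 1.27 ± 0.21, adjusted p = 0.00109). Lipa, the lysosomal esterase, had 50.2 and 40.7 CPM in SAF-TF, against 12.7 and 13.5 CPM in PF-TF (log2 fold change 1.79 ± 0.28, adjusted p = 0.000843). The stages did not overlap for these 3. Fdft1, the first enzyme committed to sterols, fell and had 152 and 98.01 CPM in SAF-TF, against 535 and 449 CPM in PF-TF (log2 fold change -1.98 ± 0.25, adjusted p = 0.000293), as did the sterol sensor gene Insig1 (log2 fold change -2.11 ± 0.36, adjusted p = 0.00137). The high-density lipoprotein receptor gene Scarb1 had 144 and 59.7 CPM in SAF-TF, against 46.4 and 24.7 CPM in PF-TF (log2 fold change 1.52 ± 0.47, adjusted p = 0.0266), a call lost without SAF-TF replicate 1 or PF-TF replicate 2 (adjusted p = 0.0796 to 0.278). Plin4, a lipid droplet coat protein, was at 0 counts in PF-TF and at least 58.9-fold higher in SAF-TF, at 24.3 and 12.97 CPM.

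Among 14 prostaglandin genes 4 rose and 4 fell, not far from the 18.2% and 25% of all genes. The prostaglandin D synthase gene Hpgds had 14.2 and 25.4 CPM in SAF-TF, against 0 and 0.803 CPM in PF-TF (log2 fold change 5.53 ± 0.84, adjusted p = 0.000749) and the other synthase gene Ptgds had 14.8 and 17.03 CPM in SAF-TF, against 2.66 and 2.81 CPM in PF-TF (log2 fold change 2.54 ± 0.46, adjusted p = 0.00183). Ptges, the inducible prostaglandin E synthase gene, fell and had 28.6 and 31.7 CPM in SAF-TF, against 109.5 and 101 CPM in PF-TF (log2 fold change -1.80 ± 0.43, adjusted p = 0.00801), a call lost without SAF-TF replicate 1 (adjusted p = 0.0539). Ptgis, of prostacyclin synthesis, fell as well (log2 fold change -1.47 ± 0.30, adjusted p = 0.00384).

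Antioxidant genes rose in 17 of 26 tested, with 1 that fell (median 0.90), against 18.2% and 25% of all genes. The metallothionein genes Mt1 and Mt2, whose products bind metals, were among the abundant members. Mt1 had 1563 and 1507 CPM in SAF-TF, against 63.2 and 84.9 CPM in PF-TF (log2 fold change 4.37 ± 0.37, adjusted p = 3.77e-05), and Mt2 had 302 and 309 CPM in SAF-TF, against 2.44 and 7.12 CPM in PF-TF (log2 fold change 5.98 ± 0.70, adjusted p = 0.000177). Gpx1, a cytosolic glutathione peroxidase, had 1716 and 1839 CPM in SAF-TF, against 281 and 338 CPM in PF-TF (log2 fold change 2.52 ± 0.21, adjusted p = 3.27e-05), and Gpx3, its secreted relative, had 661 and 299.6 CPM in SAF-TF, against 57.9 and 35.02 CPM in PF-TF (log2 fold change 3.37 ± 0.49, adjusted p = 0.000592). The SAF-TF libraries were close for Mt1, Mt2 and Gpx1, while Gpx3 was higher in replicate 1. Txn1, thioredoxin, rose by 1.67 ± 0.18 and Srxn1, sulfiredoxin, by 5.83 ± 0.71. Gclm, a subunit of the enzyme of glutathione synthesis, fell by 0.94 (adjusted p = 0.00687), a call lost without SAF-TF replicate 2 or PF-TF replicate 1 and with the authors' factors (adjusted p = 0.051 to 0.0805). Its catalytic partner Gclc had 33.8 and 28.4 CPM in SAF-TF, against 25.6 and 19.97 CPM in PF-TF and did not pass.

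Mitotic genes fell in 20 of 22 tested and rose in 0, against 25% and 18.2% of all genes (median -1.90). Ccnb1, the mitotic cyclin, had 70.3 and 106 CPM in SAF-TF, against 983 and 856 CPM in PF-TF (log2 fold change -3.38 ± 0.26, adjusted p = 2.37e-05). Aurka, a spindle kinase, had 28.05 and 30.3 CPM in SAF-TF, against 268 and 175 CPM in PF-TF (log2 fold change -2.92 ± 0.25, adjusted p = 3.77e-05), and Bub1b, of the spindle checkpoint, had 22.2 and 19.2 CPM in SAF-TF, against 207 and 167 CPM in PF-TF (log2 fold change -3.17 ± 0.24, adjusted p = 2.22e-05). Ccnb1, Aurka and Bub1b are also abundant in oocytes, whose markers had the sums given above, and the part of oocyte RNA in these counts was not tested. The members that did not pass were the proliferation markers Mki67, at 45.4 and 94.2 CPM in SAF-TF, against 97.2 and 119 CPM in PF-TF, and Top2a, at 71.2 and 123 CPM in SAF-TF, against 106 and 122 CPM in PF-TF. For both, SAF-TF replicate 1 held less than SAF-TF replicate 2, which for Top2a lay above both PF-TF libraries. Mki67 passed without SAF-TF replicate 2 (adjusted p = 0.019). Cdk1, the mitotic kinase, stood at -1.14 ± 0.26, a call lost without SAF-TF replicate 1 (adjusted p = 0.0541), and the survivin gene Birc5 at -2.10 ± 0.24.

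DNA replication genes fell in 19 of 24 tested and rose in 0 (median -1.11), against 25% and 18.2% of all genes. Orc1, of the origin recognition complex, had 3.2997 and 3.61 CPM in SAF-TF, against 93.7 and 40.2 CPM in PF-TF (log2 fold change -4.27 ± 0.44, adjusted p = 9.58e-05). The licensing genes Cdt1 and Cdc6 stood at -2.81 ± 0.36 and -2.38 ± 0.41, and the helicase genes Mcm6, Mcm4, Mcm7 and Mcm5 at -1.84, -1.77, -1.71 and -1.59. Pcna, the sliding clamp, had 142 and 173 CPM in SAF-TF, against 179 and 171 CPM in PF-TF and did not pass (adjusted p = 0.635). The E cyclins, which open S phase, fell. Ccne2 had 7.15 and 13.6 CPM in SAF-TF, against 79.6 and 71.4 CPM in PF-TF (log2 fold change -2.86 ± 0.33, adjusted p = 0.000176), and Ccne1 had 3.63 and 5.08 CPM in SAF-TF, against 25.3 and 21.9 CPM in PF-TF (log2 fold change -2.43 ± 0.39, adjusted p = 0.00102).

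Of 16 cell cycle inhibitors and D and E cyclins 5 rose and 2 fell, against 18.2% and 25% of all genes. The E cyclins were those that fell. Cdkn1a, the p21 inhibitor, had 122 and 95.8 CPM in SAF-TF, against 1.44 and 2.51 CPM in PF-TF (log2 fold change 5.77 ± 0.47, adjusted p = 2.93e-05), and Cdkn1b, the p27 inhibitor tied to luteal cell cycle exit, had 60.1 and 42.4 CPM in SAF-TF, against 3.32 and 9.23 CPM in PF-TF (log2 fold change 3.02 ± 0.47, adjusted p = 0.000815). Cdkn2c had 135 and 106 CPM in SAF-TF, against 8.09 and 7.93 CPM in PF-TF (log2 fold change 3.90 ± 0.27, adjusted p = 1.83e-05) and Cdkn2b had 53.02 and 78.4 CPM in SAF-TF, against 0 and 1.405 CPM in PF-TF (log2 fold change 6.47 ± 0.81, adjusted p = 0.000262). No library of one stage reached the range of the other. The relatives Cdkn1c, at 14.8 and 15.001 CPM in SAF-TF, against 9.52 and 13.2 CPM in PF-TF, and Cdkn2d, at 34.8 and 30.3 CPM in SAF-TF, against 16.6 and 20.9 CPM in PF-TF, did not pass, though Cdkn2d did with RLE factors, the authors' factors, upper-quartile factors, only the 4 TF libraries in the fit or DESeq2 (adjusted p = 0.0156 to 0.0373). Ccnd2, the D cyclin of granulosa cells, had 211 and 307 CPM in SAF-TF, against 333 and 346 CPM in PF-TF (log2 fold change -0.39 ± 0.45, adjusted p = 0.51), and Ccnd1 rose (log2 fold change 2.41 ± 0.63, adjusted p = 0.0119). Gadd45a, a stress-induced growth arrest gene, had 116 and 117 CPM in SAF-TF, against 9.75 and 8.43 CPM in PF-TF (log2 fold change 3.68 ± 0.26, adjusted p = 1.93e-05). Of 19 apoptosis and atresia genes 6 rose and 1 fell, against 18.2% and 25% of all genes. The call of the gene that fell was lost without SAF-TF replicate 2 or PF-TF replicate 1. Bax, a promoter of cell death, rose by 1.10 ± 0.21 (adjusted p = 0.00269), and Mcl1, which opposes it, by 1.33 ± 0.26 (adjusted p = 0.00309).

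**Figure D3:**
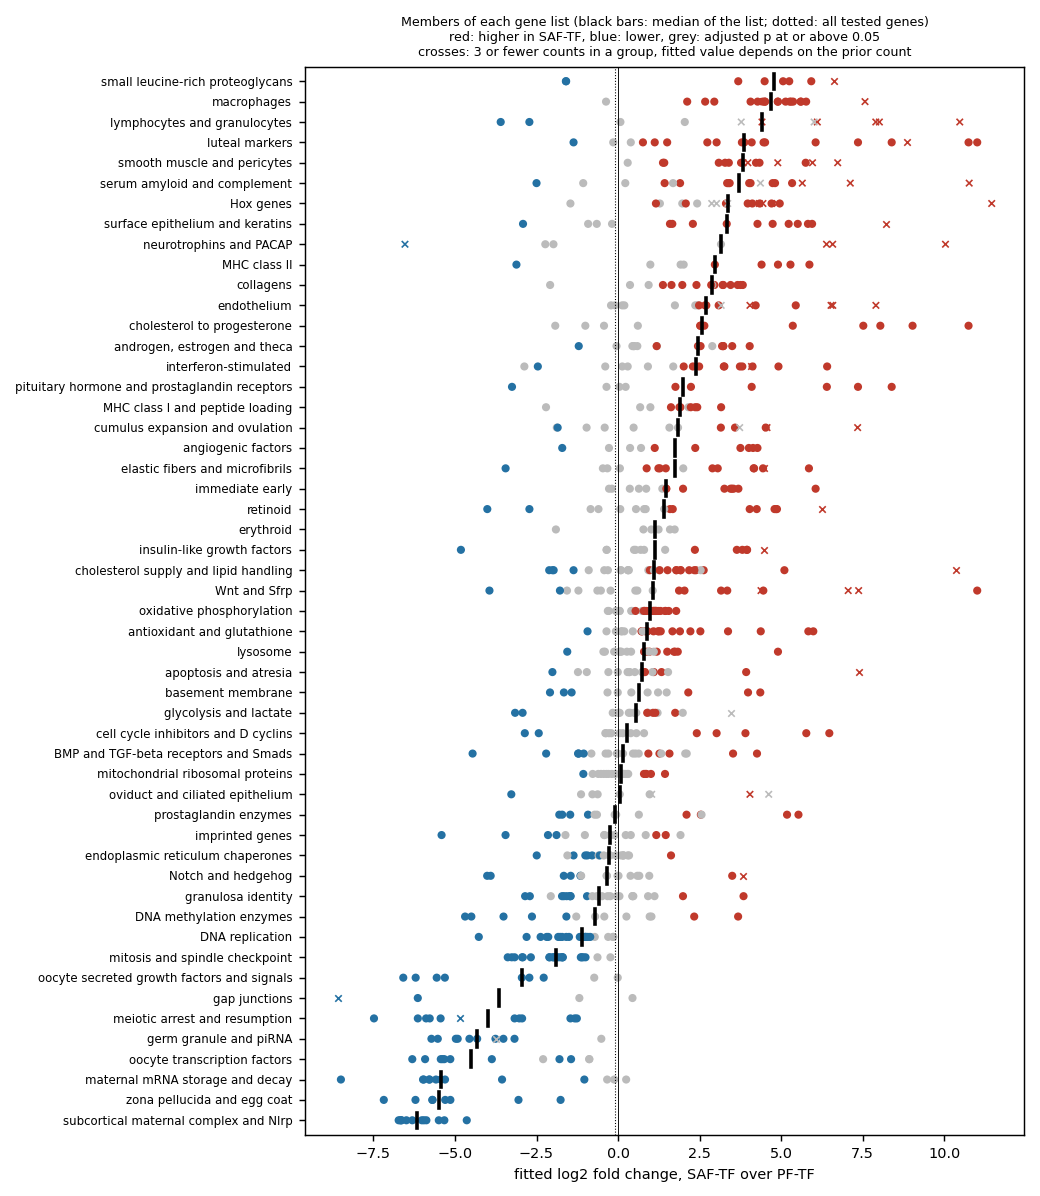
Fitted log2 fold change of SAF-TF over PF-TF (x) for each tested member of 52 gene lists (rows), ordered by their medians. Crosses mark genes with 3 counts or fewer at one stage, whose fitted values depend on the prior count. Oocyte lists lie at the bottom, with the lowest median at -6.16, and small leucine-rich proteoglycans and macrophages at the top.

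Collagen genes rose in 12 of 16 tested with 0 that fell (median 2.87), against 18.2% and 25% of all genes. By DESeq2, with the 4 TF libraries alone or with no filter on low counts, 1 fell. Col1a1 had 55.3 and 22.4 CPM in SAF-TF, against 0.997 and 4.42 CPM in PF-TF (log2 fold change 3.82 ± 0.86, adjusted p = 0.00583), Col3a1 had 246 and 151 CPM in SAF-TF, against 7.75 and 21.6 CPM in PF-TF (log2 fold change 3.75 ± 0.60, adjusted p = 0.00101) and Col4a1, of basement membranes, had 119.6 and 71.6 CPM in SAF-TF, against 8.86 and 8.63 CPM in PF-TF (log2 fold change 3.45 ± 0.43, adjusted p = 0.000249). All 3 were higher in SAF-TF replicate 1 than in replicate 2. The 5 stroma markers moved with them and summed to 1265 and 855 CPM in SAF-TF, against 12.3 and 40.9 CPM in PF-TF. Of 8 small leucine-rich proteoglycans 6 rose and 2 fell (median 4.77, or 4.09 with Fmod, at 0 counts in PF-TF, at its lower bound). Lum, which orders collagen fibrils, had 571 and 361 CPM in SAF-TF, against 1.66 and 13.5 CPM in PF-TF (log2 fold change 5.92 ± 0.73, adjusted p = 0.000244), and Bgn, of the same family, had 204 and 121 CPM in SAF-TF, against 2.55 and 7.12 CPM in PF-TF (log2 fold change 5.06 ± 0.60, adjusted p = 0.000197). Omd and Prelp fell. Omd had 26.7 and 54.7 CPM in SAF-TF, against 102 and 143 CPM in PF-TF (log2 fold change -1.59 ± 0.35, adjusted p = 0.00547), and Prelp had 8.36 and 5.75 CPM in SAF-TF, against 25.3 and 17.7 CPM in PF-TF (log2 fold change -1.60 ± 0.38, adjusted p = 0.00775), a call lost without SAF-TF replicate 2 or PF-TF replicate 1 (adjusted p = 0.0665 to 0.0676).

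Elastic fiber and microfibril genes rose in 11 of 16 tested, with 5 without SAF-TF replicate 1 and 7 without PF-TF replicate 1. Mfap5, a microfibril protein, had 57.2 and 52.9 CPM in SAF-TF, against 2.104 and 2.91 CPM in PF-TF (log2 fold change 4.44 ± 0.34, adjusted p = 2.38e-05). Mfap4 had 44.9 and 21.9 CPM in SAF-TF, against 2.55 and 1.204 CPM in PF-TF (log2 fold change 4.16 ± 0.50, adjusted p = 0.000203), and Efemp1, a fibulin, had 88.3 and 56.2 CPM in SAF-TF, against 0 and 2.41 CPM in PF-TF (log2 fold change 5.85 ± 0.87, adjusted p = 0.000669). Ltbp2, which binds to fibrillin, fell and had 2.1998 and 1.69 CPM in SAF-TF, against 20.8 and 21.98 CPM in PF-TF (log2 fold change -3.45 ± 0.40, adjusted p = 0.000168). Among basement membrane genes, the nidogen genes Nid1 and Nid2 rose. Nid1 had 61.8 and 54.3 CPM in SAF-TF, against 1.77 and 3.81 CPM in PF-TF (log2 fold change 4.36 ± 0.45, adjusted p = 8.91e-05), and Nid2 stood at 3.98 ± 0.57. Sparc, which binds collagen, was the third that rose (log2 fold change 2.15 ± 0.31, adjusted p = 0.00055). The laminin chain gene Lamb1 fell and had 55.9 and 35.6 CPM in SAF-TF, against 160.3 and 129 CPM in PF-TF (log2 fold change -1.66 ± 0.26, adjusted p = 0.000914), and Lama2 stood at -1.43 ± 0.35, a call lost without SAF-TF replicate 2 or PF-TF replicate 1 (adjusted p = 0.0735 to 0.0808). Of the 12 tested genes of the list 3 rose and 3 fell, near the 18.2% and 25% of all genes. More rose without PF-TF replicate 2, and fewer fell without SAF-TF replicate 2. Lama1, abundant in granulosa basement membrane, had 54.2 and 74.2 CPM in SAF-TF, against 32.01 and 64.9 CPM in PF-TF and passed only without PF-TF replicate 2 (adjusted p = 0.0286).

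Genes of smooth muscle and pericytes rose in 14 of 15 tested, with 8 that rose without SAF-TF replicate 1 (median 3.83). Acta2, smooth muscle actin, had 870.5 and 553 CPM in SAF-TF, against 24.5 and 45.96 CPM in PF-TF (log2 fold change 4.33 ± 0.54, adjusted p = 0.000254). Tagln, which binds it, had 734 and 503 CPM in SAF-TF, against 6.09 and 16.8 CPM in PF-TF (log2 fold change 5.75 ± 0.74, adjusted p = 0.000308), and Actg2 had 179 and 100.04 CPM in SAF-TF, against 7.75 and 7.12 CPM in PF-TF (log2 fold change 4.23 ± 0.47, adjusted p = 0.000144). Des, desmin, had 1 count in PF-TF and was higher in SAF-TF by a ratio of 134 (95% counting interval 23.7 to 5347). The 4 smooth muscle markers summed to 1679 and 1105 CPM in SAF-TF, against 56.5 and 79.2 CPM in PF-TF. Endothelial genes rose in 10 of 18, or 6 without SAF-TF replicate 1, and the 4 markers of that type summed to 67.5 and 47.7 CPM in SAF-TF, against 10.4 and 14.8 CPM in PF-TF. Emcn, an endothelial sialomucin, had 31.2 and 30.8 CPM in SAF-TF, against 2.66 and 0.702 CPM in PF-TF (log2 fold change 4.22 ± 0.53, adjusted p = 0.000259). Eng, a TGF-beta co-receptor, had 15.8 and 8.12 CPM in SAF-TF, against 0.111 and 0.401 CPM in PF-TF (log2 fold change 5.45 ± 0.79, adjusted p = 0.000576). Nrp1, a co-receptor of vascular endothelial growth factor, had 73.03 and 60.5 CPM in SAF-TF, against 11.6 and 14.2 CPM in PF-TF (log2 fold change 2.37 ± 0.31, adjusted p = 0.000348).

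Macrophage genes rose in 19 of 20 tested, against 18.2% of all genes. Their median was 4.70, or 4.50 with Cd163, at 0 counts in PF-TF, at its lower bound. The 4 defining markers summed to 450.2 and 763 CPM in SAF-TF, against 18.3 and 5.12 CPM in PF-TF. SAF-TF replicate 2 was the higher of the pair for Cd68, Lyz2 and Fcer1g. Cd68, a lysosomal protein of macrophages, had 41.9 and 93.8 CPM in SAF-TF, against 1.66 and 1.61 CPM in PF-TF (log2 fold change 5.37 ± 0.65, adjusted p = 0.000212). Lyz2, lysozyme, had 381 and 633 CPM in SAF-TF, against 15.8 and 2.91 CPM in PF-TF (log2 fold change 5.76 ± 0.96, adjusted p = 0.00124), and Fcer1g, a chain of immunoglobulin receptors, had 69.1 and 128 CPM in SAF-TF, against 2.88 and 2.11 CPM in PF-TF (log2 fold change 5.30 ± 0.67, adjusted p = 0.000265). Csf1r, the receptor that keeps macrophages alive, had 9.35 and 6.43 CPM in SAF-TF, against 0.222 and 0.201 CPM in PF-TF (log2 fold change 5.13 ± 1.10, adjusted p = 0.00474). Of 11 lymphocyte and granulocyte genes 5 rose and 2 fell, with markers of T and B cells at different levels. Fewer rose without SAF-TF replicate 2, and 0 rose with a filter at a mean of 10 CPM. Those that fell were Ms4a1 and Kit, and Kit was also counted among the oocyte signals above. The T cell marker Cd3e had 0.21998 and 0.564 CPM in SAF-TF, against 0 and 0 CPM in PF-TF, and the B cell marker Cd79a had 0.54995 and 1.24 CPM in SAF-TF, against 0 and 0.1003 CPM in PF-TF. Ms4a1, another B cell marker, fell and had 1.43 and 2.03 CPM in SAF-TF, against 20.7 and 21.5 CPM in PF-TF (log2 fold change -3.60 ± 0.45, adjusted p = 0.000257). The immunoglobulin light chain gene Igkc was at 0 in PF-TF and at least 63.5-fold higher in SAF-TF, at 20.6 and 19.6 CPM.

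Class II antigen genes rose in 5 of 9 tested and fell in 1, against 18.2% and 25% of all genes. H2-Ab1 had 53.7 and 45.8 CPM in SAF-TF, against 1.22 and 1.305 CPM in PF-TF (log2 fold change 5.28 ± 0.50, adjusted p = 6.38e-05), H2-Eb1 had 57.2 and 43.2 CPM in SAF-TF, against 2.33 and 2.41 CPM in PF-TF (log2 fold change 4.40 ± 0.58, adjusted p = 0.000343) and the invariant chain gene Cd74 had 337 and 280.2 CPM in SAF-TF, against 10.5 and 0.201 CPM in PF-TF (log2 fold change 5.87 ± 1.13, adjusted p = 0.00269). H2-Aa, the partner of H2-Ab1, did not pass, with 93.4 and 81.2 CPM in SAF-TF, against 39.3 and 48.7 CPM in PF-TF, though it did with the authors' factors or only the 4 TF libraries in the fit (adjusted p = 0.00675 to 0.0448). H2-Oa fell (log2 fold change -3.12 ± 0.49, adjusted p = 0.000921). Class I genes rose in 7 of 11, with 4 without SAF-TF replicate 1. The immunoproteasome gene Psmb8 had 72.2 and 70.3 CPM in SAF-TF, against 8.42 and 7.53 CPM in PF-TF (log2 fold change 3.16 ± 0.29, adjusted p = 5.09e-05), and B2m, the common light chain, had 923 and 1212 CPM in SAF-TF, against 254 and 314 CPM in PF-TF (log2 fold change 1.91 ± 0.28, adjusted p = 0.000595). Interferon-stimulated genes rose in 11 of 18, against 18.2% of all genes, or in 4 with a filter at a mean of 10 CPM. Among those that rose were Ifi27 (log2 fold change 2.01 ± 0.20, adjusted p = 8.07e-05) and Gbp2 (log2 fold change 3.81 ± 0.60, adjusted p = 0.000871), while Irf1 fell and had 33.2 and 22.3 CPM in SAF-TF, against 165 and 140.5 CPM in PF-TF (log2 fold change -2.46 ± 0.30, adjusted p = 0.000217).

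Complement and acute phase genes rose in 13 of 18 tested and fell in 1, against 18.2% and 25% of all genes. Their median was 3.72, or 3.40 with those at 0 in PF-TF at their bounds. With a filter at a mean of 10 CPM, 6 rose. C3, the central complement protein, had 24.5 and 10.7 CPM in SAF-TF, against 0.554 and 0.301 CPM in PF-TF (log2 fold change 5.33 ± 0.86, adjusted p = 0.00102), and Serping1, which inhibits the first step, had 104 and 57.4 CPM in SAF-TF, against 1.88 and 3.81 CPM in PF-TF (log2 fold change 4.81 ± 0.47, adjusted p = 7.07e-05). C1s had 70.9 and 40.4 CPM in SAF-TF, against 6.76 and 4.21 CPM in PF-TF (log2 fold change 3.34 ± 0.39, adjusted p = 0.000174). C1qb, made by macrophages, had 135 and 224 CPM in SAF-TF, against 17.1 and 16.5 CPM in PF-TF (log2 fold change 3.42 ± 0.43, adjusted p = 0.00025). Saa2, a serum amyloid, was at 0 in PF-TF and at least 77.5-fold higher in SAF-TF, at 24.6 and 24.5 CPM. Hp, haptoglobin, fell and had 3.63 and 3.38 CPM in SAF-TF, against 18.2 and 21.7 CPM in PF-TF (log2 fold change -2.50 ± 0.56, adjusted p = 0.0057), and the abundant clusterin gene Clu did not pass, with 1555 and 1229 CPM in SAF-TF, against 1094 and 1296 CPM in PF-TF.

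Genes of the ovarian surface epithelium and keratins rose in 11 of 15 tested and fell in 1, against 18.2% and 25% of all genes. With a filter at a mean of 10 CPM, 7 rose. The 4 defining markers summed to 151 and 66.9 CPM in SAF-TF, against 0.222 and 5.82 CPM in PF-TF. Krt19 had 76.7 and 27.2 CPM in SAF-TF, against 0 and 1.61 CPM in PF-TF (log2 fold change 5.95 ± 1.30, adjusted p = 0.00523), and the uroplakin gene Upk3b had 30.4 and 14.7 CPM in SAF-TF, against 0.222 and 1.405 CPM in PF-TF (log2 fold change 4.74 ± 0.90, adjusted p = 0.00251). SAF-TF replicate 1 was the higher for each. Cdh1, which growing oocytes also make, fell and had 2.31 and 1.58 CPM in SAF-TF, against 13.2 and 16.4 CPM in PF-TF (log2 fold change -2.92 ± 0.67, adjusted p = 0.00637), a call lost without SAF-TF replicate 2 (adjusted p = 0.0531). The oviduct markers Ovgp1 and Pax8 summed to at most 1.10 CPM in any TF library. Markers of red blood cells stood apart by library. Hba-a1, a globin gene, had 239.6 and 129.7 CPM in SAF-TF, against 2.66 and 108 CPM in PF-TF, with PF-TF replicate 1 alone low, and passed only without PF-TF replicate 2 (adjusted p = 0.000528). No erythroid gene passed, and 4 rose without PF-TF replicate 2. What part such cells around the follicle had in the matrix, vessel, immune and epithelial counts was not tested.

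Of 27 Hox genes in both tables, 19 passed the filter on low counts, which a gene could pass through SAF-TF alone. Of these 19, 12 rose with none that fell (median 3.36), against 18.2% of all genes that rose. With a filter at a mean of 10 CPM 5 rose, so the count is no independent evidence of direction. These factors keep positional identity in mesenchyme. Hoxd8 had 47.6 and 47.6 CPM in SAF-TF, against 1.88 and 4.11 CPM in PF-TF (log2 fold change 3.97 ± 0.49, adjusted p = 0.000242), Hoxd3 had 15.9 and 20.6 CPM in SAF-TF, against 0.886 and 0.502 CPM in PF-TF (log2 fold change 4.70 ± 0.62, adjusted p = 0.000346) and Hoxd9 had 21.9 and 11.6 CPM in SAF-TF, against 1.55 and 1.81 CPM in PF-TF (log2 fold change 3.31 ± 0.51, adjusted p = 0.000823). Hoxb7, of another cluster, had 15.9 and 16.9 CPM in SAF-TF, against 0.443 and 1.405 CPM in PF-TF (log2 fold change 4.11 ± 0.56, adjusted p = 0.000406). The stages did not overlap for these 4. Hoxd10 was at 0 in PF-TF and at least 125-fold higher in SAF-TF, at 38.4 and 40.8 CPM. Hoxa7, which oocytes and granulosa cells are known to make, had 3.74 and 4.74 CPM in SAF-TF, against 9.52 and 13.8 CPM in PF-TF, and did not pass (adjusted p = 0.073), though it did with only the 4 TF libraries in the fit (adjusted p = 0.0403).

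Genes of oxidative phosphorylation rose in 21 of 30 tested with none that fell (median 0.98), against 18.2% and 25% of all genes. Each that rose did so by a factor of less than 4. Uqcrb, of complex III, had 579 and 642 CPM in SAF-TF, against 161 and 195 CPM in PF-TF (log2 fold change 1.78 ± 0.21, adjusted p = 0.000214), and Sdhb, of complex II, had 935 and 741 CPM in SAF-TF, against 268 and 303 CPM in PF-TF (log2 fold change 1.55 ± 0.20, adjusted p = 0.000307). Ndufa4 had 664 and 721 CPM in SAF-TF, against 276 and 308 CPM in PF-TF (log2 fold change 1.25 ± 0.18, adjusted p = 0.000621). Genes of mitochondrial ribosomal proteins rose in 5 of 20, not far from the 18.2% of all genes, and fell in 1, with a median of 0.10. Of 20 glycolytic and lactate genes 4 rose and 2 fell, with 1 that rose without SAF-TF replicate 1, 8 that rose with the authors' factors and 1 that fell without SAF-TF replicate 2. The share that rose stood near the 18.2% of all genes. Ldha had 244 and 242 CPM in SAF-TF, against 142 and 119.8 CPM in PF-TF (log2 fold change 0.89 ± 0.21, adjusted p = 0.00817), the opposite direction to Ldhb. Slc2a1, a glucose transporter, fell and had 4.95 and 3.38 CPM in SAF-TF, against 43.4 and 20.3 CPM in PF-TF (log2 fold change -2.93 ± 0.66, adjusted p = 0.00611), a call lost without SAF-TF replicate 2 (adjusted p = 0.0529). Of 20 endoplasmic reticulum chaperone genes 6 fell, with 2 without SAF-TF replicate 1 or without PF-TF replicate 1 and 2 with the authors' factors. Their share stood near the 25% of all genes. Creld2, one of those that fell, had 42.2 and 48.05 CPM in SAF-TF, against 250.1 and 259 CPM in PF-TF (log2 fold change -2.50 ± 0.30, adjusted p = 0.000219), and Ddit3, a stress factor, rose and had 147 and 146 CPM in SAF-TF, against 43.3 and 52.1 CPM in PF-TF (log2 fold change 1.62 ± 0.29, adjusted p = 0.00191).

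Wnt ligands, inhibitors and targets moved in different directions. Of 19 tested 9 rose and 2 fell, against 18.2% and 25% of all genes. With a filter at a mean of 10 CPM, 4 rose. Secreted antagonists were among those that rose in the main fit. Sfrp1 had 43.8 and 29.1 CPM in SAF-TF, against 1.66 and 6.42 CPM in PF-TF (log2 fold change 3.16 ± 0.59, adjusted p = 0.00224), Dkk3 had 11.2 and 8.57 CPM in SAF-TF, against 1.55 and 0.401 CPM in PF-TF (log2 fold change 3.35 ± 0.61, adjusted p = 0.00201) and Sfrp4 stood as given above. The target genes Lef1 and Axin2 fell. Lef1 had 2.75 and 1.805 CPM in SAF-TF, against 33.2 and 37.3 CPM in PF-TF (log2 fold change -3.94 ± 0.50, adjusted p = 0.000283), and Axin2 had 2.97 and 3.05 CPM in SAF-TF, against 10.6 and 10.1 CPM in PF-TF (log2 fold change -1.78 ± 0.43, adjusted p = 0.00871), a call lost without SAF-TF replicate 1 or SAF-TF replicate 2 (adjusted p = 0.0545 to 0.0572). Wnt5a rose and had 35.6 and 21.2 CPM in SAF-TF, against 0 and 2.51 CPM in PF-TF (log2 fold change 4.45 ± 0.94, adjusted p = 0.00439), while Wnt4 did not pass, with 119 and 66.1 CPM in SAF-TF, against 49.5 and 39.4 CPM in PF-TF, though it did with only the 4 TF libraries in the fit (adjusted p = 0.0183). In the Notch path the ligand genes Jag1 and Jag2 fell. Jag1 had 4.3996 and 1.58 CPM in SAF-TF, against 54.2 and 36.1 CPM in PF-TF (log2 fold change -3.91 ± 0.50, adjusted p = 0.000293), and Jag2 stood at -4.01 ± 0.66. The hedgehog ligand gene Dhh of granulosa cells fell and had 4.51 and 4.399 CPM in SAF-TF, against 12.8 and 15.5 CPM in PF-TF (log2 fold change -1.67 ± 0.45, adjusted p = 0.0139), a call lost without SAF-TF replicate 1, SAF-TF replicate 2 or PF-TF replicate 2 (adjusted p = 0.0572 to 0.0753). Its receptor gene Ptch1 had 31.02 and 36.3 CPM in SAF-TF, against 14.1 and 30.6 CPM in PF-TF and passed only without PF-TF replicate 2 and with the authors' factors (adjusted p = 0.00635 to 0.0454). Hhip, which binds hedgehog proteins, rose and had 8.36 and 7.22 CPM in SAF-TF, against 0.111 and 1.204 CPM in PF-TF (log2 fold change 3.50 ± 0.70, adjusted p = 0.00314). Of the 17 tested genes of the whole Notch and hedgehog list 2 rose and 5 fell, near the 18.2% and 25% of all genes. Those that fell numbered 2 without SAF-TF replicate 1 or PF-TF replicate 2 and 3 without either other library, and those that rose 4 without PF-TF replicate 2 and 1 without any other library.

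Tgfb2, a ligand abundant in oocytes, fell and had 16.2 and 11.4 CPM in SAF-TF, against 294 and 314 CPM in PF-TF (log2 fold change -4.46 ± 0.33, adjusted p = 2.11e-05). Its receptor gene Tgfbr2 rose and had 14.7 and 19.5 CPM in SAF-TF, against 0.222 and 1.51 CPM in PF-TF (log2 fold change 4.26 ± 0.74, adjusted p = 0.00156). Smad2, which carries TGF-beta and activin signals, had 67.5 and 58.9 CPM in SAF-TF, against 165 and 127 CPM in PF-TF (log2 fold change -1.21 ± 0.25, adjusted p = 0.00411). Bmp2 rose and had 12.8 and 21.9 CPM in SAF-TF, against 0.222 and 2.71 CPM in PF-TF (log2 fold change 3.52 ± 0.84, adjusted p = 0.00808). Of the 23 tested genes of these receptors and Smads 5 rose and 5 fell, near the 18.2% and 25% of all genes, with 2 of each without SAF-TF replicate 1. With the authors' factors 8 rose and 3 fell, and with upper-quartile factors 7 rose and 3 fell. Without PF-TF replicate 2, 8 rose and 3 fell, and without PF-TF replicate 1, 3 fell. Of 14 genes of insulin-like growth factors 6 rose and 1 fell, against 18.2% and 25% of all genes. Binding proteins were among those that rose. Igf1 had 113 and 233 CPM in SAF-TF, against 89.7 and 125 CPM in PF-TF and passed only without SAF-TF replicate 1 and with the authors' factors or upper-quartile factors (adjusted p = 0.0346 to 0.0456). Igfbp7 had 615 and 449 CPM in SAF-TF, against 40.4 and 28.2 CPM in PF-TF (log2 fold change 3.95 ± 0.28, adjusted p = 1.91e-05), and Igfbp4 had 129 and 94.6 CPM in SAF-TF, against 7.199 and 10.7 CPM in PF-TF (log2 fold change 3.64 ± 0.46, adjusted p = 0.000267). Stc1, which inhibits a protease of these binding proteins, had 45.9 and 27.2 CPM in SAF-TF, against 3.101 and 2.11 CPM in PF-TF (log2 fold change 3.81 ± 0.52, adjusted p = 0.000405).

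Retinoid genes rose in 8 of 17 and fell in 2, with 5 that rose without SAF-TF replicate 1. With a filter at a mean of 10 CPM, 4 genes of that list rose. Adh1, an alcohol dehydrogenase outside that list that can act on retinol, had 1001 and 450.1 CPM in SAF-TF, against 0.554 and 2.51 CPM in PF-TF (log2 fold change 8.85 ± 0.87, adjusted p = 7.39e-05). Rdh10, another enzyme of that step, fell and had 4.73 and 4.62 CPM in SAF-TF, against 35.995 and 25.8 CPM in PF-TF (log2 fold change -2.72 ± 0.38, adjusted p = 0.000458). Immediate early genes rose in 9 of 15 with none that fell, against 18.2% and 25% of all genes. With a filter at a mean of 10 CPM, where fewer genes were tested, 4 of them rose. Egr1 had 33.9 and 35.9 CPM in SAF-TF, against 2.44 and 3.91 CPM in PF-TF (log2 fold change 3.45 ± 0.46, adjusted p = 0.000343), Fosl2 had 112 and 83.1 CPM in SAF-TF, against 2.77 and 14.5 CPM in PF-TF (log2 fold change 3.49 ± 0.64, adjusted p = 0.00201) and Fos had 10.999 and 18.7 CPM in SAF-TF, against 0.111 and 0.301 CPM in PF-TF (log2 fold change 6.05 ± 0.73, adjusted p = 0.000213).

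DNA methylation genes fell in 5 of 13 and rose in 2, against 25% and 18.2% of all genes. With the authors', RLE or upper-quartile factors 4 rose, and more rose without PF-TF replicate 2 too. Dnmt1, the maintenance methyltransferase stored in the oocyte, had 35.6 and 27.4 CPM in SAF-TF, against 958 and 671 CPM in PF-TF (log2 fold change -4.69 ± 0.34, adjusted p = 2.11e-05). Dnmt3l, a methylation cofactor for imprints in the growing oocyte, had 2.31 and 1.24 CPM in SAF-TF, against 39.8 and 41.2 CPM in PF-TF (log2 fold change -4.50 ± 0.43, adjusted p = 6.47e-05), Uhrf1, which brings Dnmt1 to DNA, had 12.5 and 10.2 CPM in SAF-TF, against 167 and 92.5 CPM in PF-TF (log2 fold change -3.51 ± 0.40, adjusted p = 0.000149) and Tet3, which oxidizes methylcytosine, had 17.4 and 17.5 CPM in SAF-TF, against 108 and 109.6 CPM in PF-TF (log2 fold change -2.64 ± 0.23, adjusted p = 4.54e-05). Tet2, of the same family as Tet3, had 9.35 and 12.7 CPM in SAF-TF, against 4.54 and 6.72 CPM in PF-TF and did not pass (adjusted p = 0.0691), though it did without PF-TF replicate 2 and with RLE factors, the authors' factors or upper-quartile factors (adjusted p = 0.0221 to 0.0465). Among 17 imprinted genes 4 fell and 2 rose, or 1 that rose without SAF-TF replicate 1, SAF-TF replicate 2 or PF-TF replicate 2. Of all genes 25% fell and 18.2% rose, so the shares of the list stood near the background. Mest had 7.04 and 5.98 CPM in SAF-TF, against 90.6 and 52.1 CPM in PF-TF (log2 fold change -3.45 ± 0.42, adjusted p = 0.000221), and Phlda2 had 0.43996 and 0.113 CPM in SAF-TF, against 9.97 and 14.9 CPM in PF-TF (log2 fold change -5.41 ± 1.13, adjusted p = 0.00404). Impact rose (log2 fold change 1.46 ± 0.25, adjusted p = 0.00141).

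By size alone, the calcium-binding protein genes S100a4 and S100a6 were among the largest increases. S100a4 had 174 and 268 CPM in SAF-TF, against 0.665 and 0.602 CPM in PF-TF (log2 fold change 8.42 ± 0.59, adjusted p = 1.93e-05), and S100a6 had 562 and 706 CPM in SAF-TF, against 2.55 and 2.51 CPM in PF-TF (log2 fold change 7.96 ± 0.58, adjusted p = 2.03e-05). Kcnab3, a potassium channel subunit, had 159 and 138 CPM in SAF-TF, against 0.997 and 0.602 CPM in PF-TF (log2 fold change 7.53 ± 0.48, adjusted p = 1.78e-05), and Sez6l2 had 100.2 and 64.5 CPM in SAF-TF, against 0.332 and 0.201 CPM in PF-TF (log2 fold change 8.21 ± 0.56, adjusted p = 1.83e-05). Among the largest decreases were Gpx6, a glutathione peroxidase relative with 0.43996 and 0.226 CPM in SAF-TF, against 99.3 and 78.3 CPM in PF-TF (log2 fold change -8.00 ± 0.47, adjusted p = 1.78e-05), the homeobox genes Gbx2, with 0.43996 and 0 CPM in SAF-TF, against 91.5 and 50.1 CPM in PF-TF, and Sebox, with 0.6599 and 0.113 CPM in SAF-TF, against 64.5 and 58.6 CPM in PF-TF, and the oogenesin gene Oog3, with 11.99 and 5.301 CPM in SAF-TF, against 1153 and 966 CPM in PF-TF. Gbx2, Sebox and Oog3 stood at -8.22 ± 0.69, -7.25 ± 0.52 and -6.93 ± 0.51.

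The stage effect was compared directly with that of WT follicles, which share no library with it. The difference, the change of SAF-TF over PF-TF minus that of SAF-WT over PF-WT, passed for 162 genes, 0.904% of those tested. It was more positive in TF for 118 genes, 0.658%, and more negative for 44, 0.245%. The count was 30 without SAF-TF replicate 1, 97 without SAF-TF replicate 2, 59 without PF-TF replicate 1, 23 without SAF-WT replicate 2 and 90 without SAF-WT replicate 1, where 39 were more positive and 51 more negative. It was 291 without PF-WT replicate 2. Of the 41 named genes that passed, 13 did so without SAF-TF replicate 1, 24 without SAF-TF replicate 2, 15 without PF-TF replicate 1 and 29 without PF-TF replicate 2. Of the same 41, 19 passed without SAF-WT replicate 1, 11 without SAF-WT replicate 2, 30 without PF-WT replicate 1 and 35 without PF-WT replicate 2, with 0 reversed. By list, 8 of 19 luteal genes and 4 of 12 of the path from cholesterol to progesterone had a more positive change in TF. Akr1c18 was counted in both. The lists were chosen with earlier results of these data known, so these counts are no independent evidence of a difference. Of the 52 lists, 43 had at most 1 member that differed.

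Growth arrest and cell cycle genes were among those that differed. Gadd45a changed by 3.68 ± 0.26 on the log2 scale in TF, against 0.40 ± 0.24 in WT (difference 3.28 ± 0.34, adjusted p = 0.00481). Cdkn1a changed by 5.77 ± 0.47 in TF, against 1.22 ± 0.44 in WT (adjusted p = 0.0158). Ccne2 changed by -2.86 ± 0.33 in TF, against -0.55 ± 0.31 in WT (adjusted p = 0.0493), and the kinetochore gene Ndc80 by -1.85 ± 0.22 in TF, against -0.20 ± 0.21 in WT (adjusted p = 0.0425). Gadd45a and Cdkn1a had the more positive change in TF, and Ccne2 and Ndc80 the more negative.

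Runx2 changed by 3.85 ± 0.43 in TF, against -0.16 ± 0.48 in WT (adjusted p = 0.0256), and Prlr by 4.09 ± 0.41 in TF, against 0.82 ± 0.37 in WT (adjusted p = 0.0269). Mt1 changed by 4.37 ± 0.37 in TF, against 1.07 ± 0.33 in WT (adjusted p = 0.0187), Gpx3 by 3.37 ± 0.49 in TF, against -1.01 ± 0.46 in WT (adjusted p = 0.0224), and Ftl1 by 2.56 ± 0.20 in TF, against 0.77 ± 0.19 in WT (adjusted p = 0.0224). Hsd17b7 changed by 2.45 ± 0.39 in TF, against -0.85 ± 0.39 in WT (adjusted p = 0.0295). Psmb8 changed by 3.16 ± 0.29 in TF, against 1.02 ± 0.27 in WT (adjusted p = 0.038). These 7 had a more positive change in TF, and for Runx2, Gpx3 and Hsd17b7 the value in WT was below 0. In the other direction, Omd changed by -1.59 ± 0.35 in TF, against 2.10 ± 0.35 in WT (adjusted p = 0.0146), Mest by -3.45 ± 0.42 in TF, against -0.21 ± 0.38 in WT (adjusted p = 0.0316), and Cd9 by -1.76 ± 0.29 in TF, against 0.61 ± 0.28 in WT (adjusted p = 0.0306). Kcnab3, S100a4 and S100a6 differed by 7.66, 7.01 and 4.93.

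**Figure D4:**
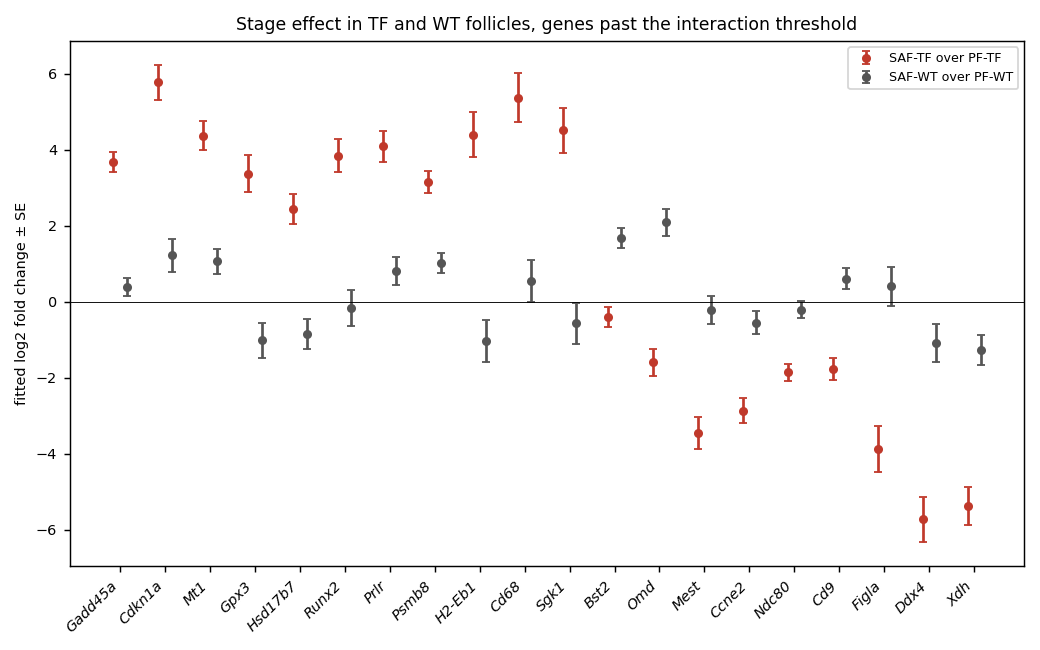
Fitted log2 fold change of small antral over preantral follicles with its SE (y), for 20 genes past the threshold of the difference between sources (x), with TF in red to the left of WT in grey. Gadd45a to Sgk1 lie higher in TF, and Bst2 to Xdh lie lower.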

How the data were processed

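The libraries were 8 single-follicle RNA libraries of 4 groups with 2 libraries each, grouped by title. The submitters' processing notes name HISAT2 2.0.1 and GRCm38. Neither they nor the labels name a read counter, an annotation or a strand setting. The authors deposited raw read counts per gene and library. The authors also deposited a normalized signal (the group mean of scaled counts), a log2 fold change and an adjusted p-value for each comparison, per the file headers. The signal served only to recover the authors' scale factor per library, and their log2 and p-value columns only for the counts of genes called in their table.

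Counts of the 21997 genes in both tables were fitted with edgeR 4.0.16 (R 4.3.3), with TMM factors, filterByExpr (minimum count 10), 1 mean per group over all 8 libraries and the quasi-likelihood test, with 4 residual degrees of freedom. Unless another setting is named beside it, an adjusted p is from this fit, with Benjamini-Hochberg adjustment over the 17925 genes tested. Where another setting is named, it is from the fit of that setting. The threshold was 0.05. The stage effect is SAF-TF minus PF-TF on the log2 scale, and its SE is its size over the square root of F. The script was tested on simulated data. Alternatives were other scale factors, filters, a replicate block, the TF libraries alone, DESeq2 1.42.0 and leaving out each library. Named genes were the largest changes and the members of each list with the smallest p, and further members were chosen after their values were seen. The members and gene lists were chosen with earlier results of these data known. Levels of genes with near-identical copies are uncertain. Same-numbered libraries were compared by the correlation of their deviations from the group means, which cannot exclude a shared mouse or batch. Counts limit precision as given beside low values, and intervals and floors cover counting error only.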

Additional observations from a re-analysis of the deposited data

Results flagged for a closer look

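The stage effect in TF differed from that in WT, by the test of the difference itself, for these named genes. Values are the log2 change in TF minus that in WT unless given as an adjusted p. Among steroid and luteal genes it was 10.85 for Akr1c18, 10.01 for Sfrp4, 7.24 for Cyp11a1, 5.73 for Star, 3.69 for Fdx1, 5.68 for Ptgfr, 3.28 for Prlr, 3.29 for Hsd17b7, 5.08 for Sgk1 and 4.01 for Runx2. Among metal, stress and metabolic genes it was 3.31 for Mt1, 4.38 for Gpx3, 1.79 for Ftl1, 3.28 for Gadd45a, 4.55 for Cdkn1a, 6.08 for Fos, 1.65 for Ldha and 7.15 for Adh1. Among immune genes it was 4.82 for Cd68, 3.41 for C1qb, 5.77 for H2-Ab1, 5.44 for H2-Eb1, 2.13 for Psmb8 and -2.08 for Bst2. The 4 macrophage markers summed to 413 and 67.3 CPM in PF-WT and to 213 and 254 CPM in SAF-WT. The WT change of macrophage genes thus varied with the PF-WT library. It was 7.01 for S100a4, 4.93 for S100a6, 7.66 for Kcnab3 and 4.69 for Sez6l2. More negative in TF were Omd at -3.69, Mest at -3.24, Cd9 at -2.38, Ccne2 at -2.31, Ndc80 at -1.65, Figla at -4.28, Ddx4 at -4.64 and Xdh at -4.11. For genes with 3 counts or fewer in a group the adjusted p of the difference was 0.0068 for Bhmt, 0.0447 for Des, 0.0278 for Hoxd10, 0.0399 for Igkc and 0.0269 for Plin4. As many as 30 of these calls were lost on leaving out SAF-WT replicate 2.

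The TF table listed 132 genes that are not in the WT table and so entered no test. Of these, 79 had at least 10 counts in a library, with 48 as the highest count, and together the 132 held at most 0.0091% of the counts of a library.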

How the results depend on the processing

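With 2 follicles per group, 1 library could move a count. The count of genes with a stage effect in TF, 7744, ranged from 5231 to 7316 on leaving out a TF library, with 2119 to 3551 higher and 3070 to 3765 lower. A filter at a mean of 10 CPM gave 4910 with 2666 lower, of 9586 tested. A gene could pass the main filter through SAF-TF alone. Under the stricter filter, where fewer genes were tested, 10 rather than 19 macrophage genes rose. Likewise 3 rather than 10 endothelial genes and 7 rather than 14 smooth muscle and pericyte genes rose. By DESeq2 7819 passed, with 47.2% of these higher. The deviations of same-numbered libraries from their group means correlated across genes at 0.159 for SAF-TF with PF-TF. Over all pairs of groups the values ran from -0.146 to 0.159. Whether same-numbered libraries share a mouse or batch is not known. With the replicate block 7092 genes passed for the stage effect and 74 (62 more positive in TF, 12 more negative) for the difference between sources. Of the 41 named genes that passed for that difference, 14 did not with the block. DESeq2 gave 810 for that difference, 482 more positive and 328 more negative. Leaving out a library moved that count of 162 between 23 and 291, with 19 to 208 more positive and 4 to 83 more negative. The cause was not tested. Of 2771 alternative values of single genes, 2698 kept direction and side of the threshold, 38 lost the call, 25 gained it and 10 changed sign, none of these called. Fshr stood at -0.01 with the replicate block and between -0.65 and 0.51 on leaving out a TF library. Cyp19a1 stood between -0.10 and 1.17 in the same way, the lowest without SAF-TF replicate 2. Pcna stood at 0.21 with the authors' factors, 0.18 with upper-quartile factors and between -0.30 and 0.00 on leaving out a TF library. Top2a stood at 0.13, 0.10 and between -0.68 and 0.10 in the same 3 settings.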
